A study of Solanum lycopersicum with 16 samples.

Results

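Expression of 22 target genes was compared between 24 h and 2 h in the roots and shoots of untreated tomato plants, without any stress treatment in the comparison. The members were the control plates, chosen by their titles. This gave 4 of the 16 plates of the series, with 2 plates for shoots and 2 for roots. Within each plate the upper well rows were read as 2 h and the lower well rows as 24 h. The labels instead make each plate a single time point, 2 h for the first plate of a tissue and 24 h for the second. The row reading was adopted because it fitted the published fold changes, and every time change below depends on it. Titles and source names were followed for treatment and tissue, but the characteristics fields tag both control root plates as salt stressed, 1 of them as shoots and 1 of the control shoot plates as roots, so every value below depends on the titles being right. The study measured transcripts by quantitative real-time PCR in seedlings under salt, low pH or flood stress, and these plants were its controls. They were 3-week-old *Solanum lycopersicum* cv. M82 plants, whose potting medium received plain water in place of saline or acidified solution. M82 itself carries a mutant *obv* allele, that is, a mutant *SlIDD5*, so transcripts of that gene were measured in a background that limits it as a model. Harvest was stated at 2 pm, and the sources used here do not give whether both time points were taken at the same hour, so time after the start of the experiment, plant age and hour of the day cannot be told apart.

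The targets were 19 genes of the tomato *IDD* family, counting *SlIDD-like1*, together with *CRF5*, *STF4* and *SlSTOP1*. INDETERMINATE DOMAIN (IDD) proteins are plant-specific transcription factors with zinc finger domains. In Arabidopsis, members of the family act with DELLA, SCARECROW and SHORT-ROOT proteins in gibberellin signalling and in the patterning of root tissues, and others direct gravitropic growth through auxin, starch metabolism or floral transition. The related protein STOP1 controls tolerance to protons and aluminium, and *CRF5* belongs to the CYTOKININ RESPONSE FACTORs.

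Each target had up to 4 wells per tissue and time. Of 384 control wells, 342 had a Ct value, the cycle at which fluorescence passed the threshold, and 331 were used, with Ct between 14.23 and 30.99. A lower Ct means more transcript, and 1 cycle was taken as a log2 step of 1. Levels are given as minus ΔCt, the mean Ct of ubiquitin on the same plate and at the same time minus the Ct of the target, and changes as the log2 difference of 24 h minus 2 h, so that positive values mean more transcript at 24 h. The wells could not be tied to plants. Tests over wells therefore measured the spread between wells, and p is too small where wells shared a plant. Targets that mark root or shoot cells were not among the assays, so the labelled tissue was not checked against markers, and for any target fewer cells that express it and less RNA per cell cannot be told apart.

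Ubiquitin, the only reference gene, differed in Ct between the times on the first plate, in opposite directions in the 2 tissues. In roots on the first plate, Ct was 16.56, 16.88, 16.58 and 16 at 2 h and 17.52, 17.84, 17.61 and 17.89 at 24 h. All 24 h wells were above all 2 h wells, the difference was 1.21 cycles and the exact two-sided permutation test gave p = 0.0286, the smallest it can give with 4 wells against 4. In shoots on the first plate, Ct was 16.12, 15.76 and 15.07 at 2 h and 14.23 and 14.67 at 24 h. These wells did not overlap either, the difference was -1.20 cycles and the exact permutation p was 0.2, where 0.1 is the smallest possible. On the second plate the differences were -0.06 cycles in roots (exact permutation p = 0.9, n = 3 and 3) and 0.15 cycles in shoots (exact permutation p = 0.629, n = 4 and 3). The first plate held *SlIDD1* to *SlIDD11* and the second the other 11 targets, so that each target takes the shift of its own plate.

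**Figure D1:**
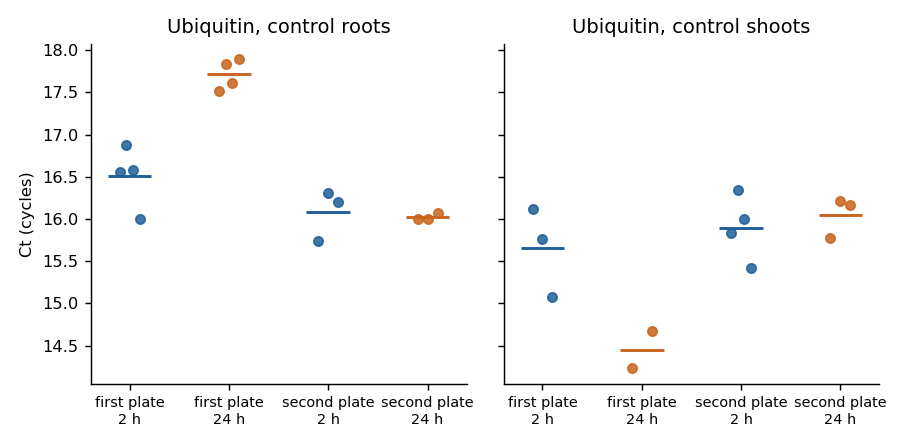
Ct of ubiquitin (cycles, lower means more product) in each control well, by tissue, plate and time; dots are wells and bars their means. On the first plate the 24 h wells lie above the 2 h wells in roots, by 1.21 cycles, and below them in shoots, by 1.20 cycles, and on the second plate the times differ by 0.06 cycles in roots and 0.15 cycles in shoots.

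In control roots, 7 of 22 targets were higher at 24 h than at 2 h and 0 were lower at an adjusted p of 0.05 (limma, Benjamini-Hochberg over 22 targets), which is 31.8% of the targets tested. The 7 were *SlIDD9*, *SlIDD6*, *SlIDD11*, *SlIDD8*, *SlIDD7*, *SlIDD2* and *SlIDD1*, and all were on the first plate, where the Ct of ubiquitin was 1.21 cycles higher at 24 h, that is, less ubiquitin product. At an unadjusted p of 0.05 the counts were 10 higher and 0 lower. The median change was 0.98 over the 11 targets of the first plate, all positive, and -0.11 over the 11 of the second plate. With no reference gene, 0 targets passed the adjusted threshold in limma and 5 passed at an unadjusted p of 0.05, and the exact permutation test per target called 10 at an unadjusted p of 0.05. After adjustment that test called 0, but its smallest p is 0.0286, which 13 of 22 targets would have to reach, and only 16 had enough wells to do so. The ubiquitin shift of 1.21 cycles is contained in the change of every first-plate target, and why ubiquitin shifted was not tested.

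*SlIDD9* is annotated in the files as Solyc06g072360. The paper describes it as close to the proton tolerance factor STOP1 of Arabidopsis, but also reports synteny of this locus with Solyc03g098070, that is, *SlIDD-like1*. *SlIDD9* had the largest change among the targets called. Its Ct in roots was 28.32, 29.57, 29.07 and 28.38 at 2 h and 27.23, 27.5 and 27.47 at 24 h. Every 24 h well was below every 2 h well even before normalization. Relative to ubiquitin, minus ΔCt went from -12.33 to -9.68, a 6.27-fold increase (log2 change 2.65, SE 0.42, 95% confidence interval 1.74 to 3.56, limma adjusted p = 5.63e-04). Of this, 1.44 came from the target's own Ct, which gave an adjusted p of 0.0868 with no reference gene. The change stayed past the threshold in 7 of 7 fits that left out 1 well row holding a value of the target. *SlSTOP1*, assayed on the second plate and listed with the same locus name, had a change of 0.58 (SE 1.10, adjusted p = 0.706).

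*SlIDD6* (Solyc11g069240) belongs to the group of *SlIDD7*, *SlIDD13* and *SlIDD14*, whose Arabidopsis relatives take part in root tissue patterning. In roots its Ct was 29.04, 27.93 and 27.49 at 2 h and 27.39, 26.44, 26.65 and 27.45 at 24 h. The times did not overlap, although the lowest 2 h well and the highest 24 h well were close. The increase relative to ubiquitin was 5.21-fold (log2 change 2.38, SE 0.50, adjusted p = 0.00618) and it was past the threshold in 7 of 7 such fits. With no reference gene the change was 1.17 (adjusted p = 0.176). In the same group, *SlIDD7* rose by 1.09 (SE 0.40, adjusted p = 0.0492), while *SlIDD13* (1.57, SE 0.92, adjusted p = 0.204) and *SlIDD14* (-1.23, SE 0.56, adjusted p = 0.118) did not pass.

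The group of *SlIDD2*, *SlIDD10* and *SlIDD11* had 2 of 3 members called higher in roots and a median change of 0.98. All 3 are on the first plate, where 63.6% of the targets were called and the median change was also 0.98, so the group did not stand apart from its plate. For *SlIDD11* (Solyc03g121660), Ct in roots was 20.1, 19.86, 20.65 and 19.64 at 2 h and 20.02, 19.75 and 19.7 at 24 h. These Ct values overlapped, and the times separated only after subtraction of ubiquitin, with minus ΔCt from -4.14 to -3.13 at 2 h and from -2.31 to -1.98 at 24 h. The change was 1.45 (SE 0.37, adjusted p = 0.0110). *SlIDD2* rose by 0.98 (SE 0.36, adjusted p = 0.0492) from Ct values of 19.09, 18.45, 18.19 and 18.04 at 2 h and 18.45, 18.56, 18.65 and 19.03 at 24 h, which overlapped. *SlIDD10* had a change of 0.95 (SE 0.38, adjusted p = 0.0577).

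The remaining targets called in roots were *SlIDD8* and *SlIDD1*. *SlIDD8* is related to Arabidopsis *AtIDD8*, which acts on sugar metabolism and floral transition. Its Ct in roots was 23.31, 23.4, 23.13 and 22.96 at 2 h and 23.06, 23.49 and 23.4 at 24 h, which overlapped, and the change relative to ubiquitin was 1.09 (SE 0.33, adjusted p = 0.0237). *SlIDD1*, related to the gibberellin signalling and seed germination factor *AtIDD1*, had Ct values of 21.88, 21.73, 21.99 and 21.71 at 2 h and 22.1, 22.33, 22.24 and 22.28 at 24 h. All 24 h wells of *SlIDD1* had a higher Ct, that is, less product, than all 2 h wells, and only relative to ubiquitin was the change positive (0.80, SE 0.29, adjusted p = 0.0492). Its Ct change alone was in the opposite direction, a log2 change of -0.41 (adjusted p = 0.202). *SlIDD2*, *SlIDD7* and *SlIDD8* also turned negative with no reference gene, to -0.23, -0.12 and -0.12. *SlIDD1*, *SlIDD2* and *SlIDD7* each passed the threshold in 1 of 8 fits that left out 1 of their wells, *SlIDD8* in 3 of 7 and *SlIDD11* in 5 of 7.

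*SlIDD12* (Solyc01g005060), which groups with *SlIDD5* and *SlIDD-like1*, had the largest change in roots of all 22 targets and the widest error of those with a change over 1. Its Ct was 30.99, 28.15 and 28.77 at 2 h and 24.63, 26.12 and 27.87 at 24 h. The times did not overlap, but wells of the same time lay more than 2 cycles apart at both times. The change was 3.04 (SE 1.06, 95% confidence interval 0.54 to 5.53, adjusted p = 0.0577), just over the threshold. The targets with the largest root changes, *SlIDD12*, *SlIDD9* and *SlIDD6*, were also those with the least transcript in roots at 2 h. Their mean Ct was 29.3, 28.84 and 28.15, against 23.44 for the next highest, *SlIDD3*. *SlIDD5*, known as *OBSCURAVENOSA* for its part in forming bundle sheath extensions in leaves, had 0.82 (adjusted p = 0.0838), and *SlIDD-like1*, which controls stigma position, 0.73 (adjusted p = 0.341). The smallest change in roots was that of *STF4*, at 0.10 (SE 0.49, 95% confidence interval -0.99 to 1.20), with Ct values of 18.32, 18.73 and 17.74 at 2 h and 18.45, 18.49 and 17.38 at 24 h. *CRF5* had -0.97 (SE 0.78, adjusted p = 0.341), and the other uncalled targets, *SlIDD3*, *SlIDD4* and *SlIDD15* to *SlIDD18*, lay between -0.71 and 0.82.

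**Figure D2:**
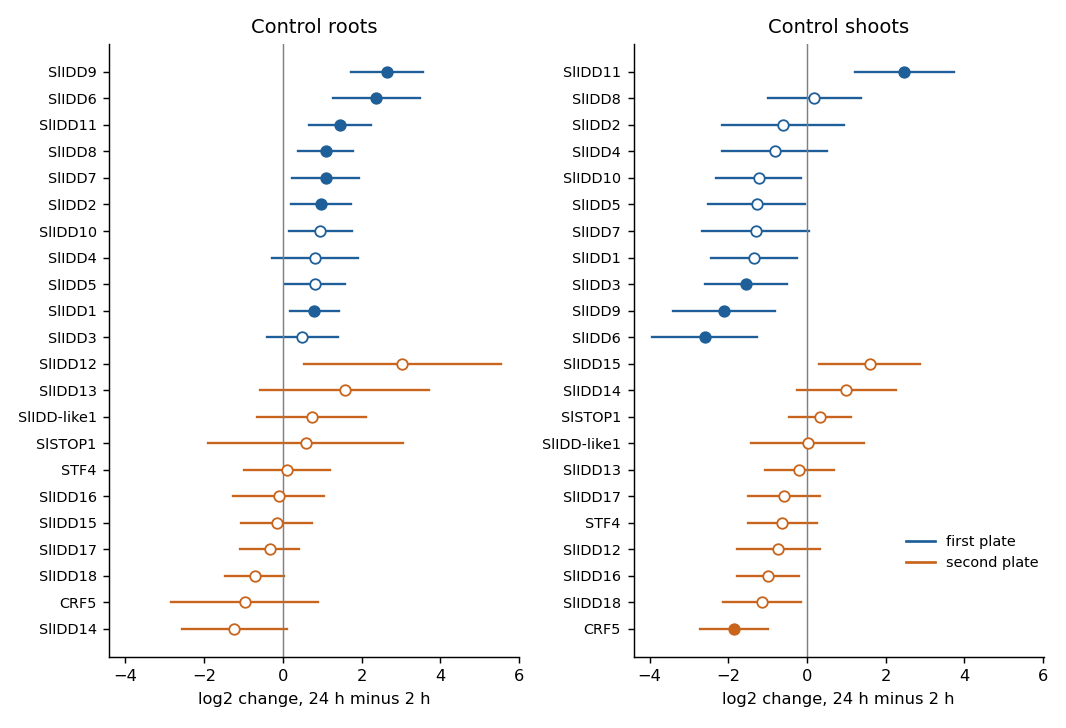
Log2 change of 24 h minus 2 h relative to ubiquitin for 22 targets in control roots and shoots, with 95% confidence intervals; blue is the first plate, orange the second, and filled points passed an adjusted p of 0.05 (limma). In roots the 7 filled points are all on the first plate and positive, and in shoots 1 filled point is positive and 4 are negative.

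In control shoots, 5 of 22 targets changed between 2 h and 24 h, or 22.7% of those tested (limma, adjusted p of 0.05). *SlIDD11* rose, and *SlIDD6*, *SlIDD9*, *CRF5* and *SlIDD3* fell. At an unadjusted p of 0.05, 11 of 22 targets passed. The median change was -1.28 for the targets of the first plate and -0.58 for those of the second, and -0.77 over all 22 targets. The exact permutation test per target called 7 at an unadjusted p of 0.05 and 0 after adjustment, where again 13 targets at its smallest p would be needed and 17 had enough wells. With no reference gene, 5 targets also passed, but only *SlIDD11* and *CRF5* were in both sets. The other 3 were *SlIDD8*, which was higher, and *SlIDD16* and *SlIDD18*, which were lower.

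The rise of *SlIDD11* in shoots was present in the Ct values themselves. They were 22.7, 23.41 and 22.34 at 2 h and 19.02 and 19.25 at 24 h. The wells of the 2 times were more than 3 cycles apart. Relative to ubiquitin the change was 2.48 (SE 0.58, adjusted p = 0.00604), a 5.56-fold increase, and with no reference gene it was 3.68 (adjusted p = 6.84e-04), since ubiquitin moved in the same direction. It passed in 4 of 5 fits that left out 1 of its wells, and without the second 24 h row, which left 1 well of the target at 24 h, it was 2.14 (adjusted p = 0.0913). *SlIDD2* and *SlIDD10* of the same group had changes of -0.61 (adjusted p = 0.489) and -1.23 (adjusted p = 0.0645).

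*CRF5* was the only target of the second plate called in shoots. Its Ct was 20.58, 20.09, 20.78 and 20.63 at 2 h and 22.17, 22.6 and 22.77 at 24 h. All 24 h wells lay more than 1 cycle above all 2 h wells. The transcript was 3.60-fold lower at 24 h (log2 change -1.85, SE 0.41, 95% confidence interval -2.71 to -0.99, adjusted p = 0.00594). The change was -2.0 with no reference gene (adjusted p = 6.84e-04), and it passed in 7 of 7 fits that left out 1 of its wells.

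*SlIDD6*, *SlIDD9* and *SlIDD3*, all on the first plate, fell in shoots while ubiquitin Ct fell by 1.20 cycles. For *SlIDD6*, Ct was 26.15, 24.1, 25.67 and 24.31 at 2 h and 26.1, 26.1, 27.13 and 26.49 at 24 h, and the first 2 h well lay within the range of the 24 h wells. Its change was -2.60 (SE 0.63, adjusted p = 0.00604) and -1.40 with no reference gene (adjusted p = 0.0557). For *SlIDD9*, Ct was 23.7 and 24.84 at 2 h and 24.91, 25.2 and 25.42 at 24 h. The higher 2 h well and the lowest 24 h well differed by less than 0.1 cycles. The change of *SlIDD9* was -2.11 (SE 0.60, adjusted p = 0.0190) and -0.90 with no reference gene (adjusted p = 0.151). *SlSTOP1*, listed with the same locus name but assayed on the second plate, changed by 0.33 in shoots (SE 0.38, adjusted p = 0.484), the opposite sign. *SlIDD3*, whose wells scattered least of the 3, had Ct values of 20.78, 20.85, 20.46 and 20.45 at 2 h and 21.15, 20.82, 20.89 and 21.02 at 24 h, with overlap, and a change of -1.54 (SE 0.47, adjusted p = 0.0327). Without the reference gene *SlIDD3* changed by -0.34 (adjusted p = 0.265). *SlIDD6* passed in 8 of 8 fits that left out 1 of its wells, *SlIDD9* in 1 of 5 and *SlIDD3* in 3 of 8.

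Of the other targets in shoots, *SlIDD1* (-1.34), *SlIDD15* (1.59) and *SlIDD16* (-0.99) each had an adjusted p of 0.0543. *SlIDD16*, also called *SlZF-31*, has been linked to salt and drought tolerance in tomato, and its change was -1.14 with no reference gene (adjusted p = 0.00588). *SlIDD18* had -1.15 (adjusted p = 0.0604) and, with no reference gene, -1.30 (adjusted p = 0.0239). *SlIDD8* had Ct values of 22.73, 21.98 and 21.87 at 2 h and 21.23, 20.83 and 20.37 at 24 h, which did not overlap, and yet a change of 0.18 relative to ubiquitin (SE 0.55, 95% confidence interval -1.0 to 1.36). The smallest change was that of *SlIDD-like1*, at 0.02 (SE 0.66, 95% confidence interval -1.41 to 1.45), whose Ct was 21.34, 23.41 and 21.14 at 2 h and 23.06, 22.18, 21.58 and 21.55 at 24 h. The other targets, *SlSTOP1* included, had changes between -1.31 (*SlIDD7*) and 0.99 (*SlIDD14*).

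The time change differed between roots and shoots for 8 of 22 targets, or 36.4% (limma interaction, adjusted p of 0.05). In all 8 it was more positive in roots, and 7 of the 8 were on the first plate. *SlIDD6* differed by 4.98 (SE 0.84, adjusted p = 3.36e-05) and *SlIDD9* by 4.75 (SE 0.75, adjusted p = 3.16e-05), each being called higher in roots and lower in shoots. For *SlSTOP1*, listed with the locus name of *SlIDD9*, the difference was 0.25 (SE 1.26, adjusted p = 0.843). *SlIDD12*, on the second plate, differed by 3.76 (SE 1.16, adjusted p = 0.0152). Its shoot wells, with Ct of 23.3, 23.65 and 22.34 at 2 h and 23.96, 23.27, 24.14 and 24.52 at 24 h, overlapped, unlike its root wells. The other 5 were *SlIDD7* (2.39), *SlIDD10* (2.18), *SlIDD1* (2.14), *SlIDD5* (2.10) and *SlIDD3* (2.04), with adjusted p from 0.00792 to 0.0164.

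The wells of these 5 targets showed how the differences were made up. *SlIDD7* had root Ct of 20.94, 20.12, 19.77 and 19.73 at 2 h and 20.0, 20.07, 20.76 and 20.21 at 24 h, and shoot Ct of 19.26, 21.1, 18.95 and 19.46 at 2 h and 19.15, 20.16, 19.4 and 20.49 at 24 h. *SlIDD1* had shoot Ct of 23.52, 24.33 and 23.51 at 2 h and 23.79, 23.88, 24.0 and 24.04 at 24 h. In these wells the 24 h values overlapped the 2 h values. *SlIDD3* had root Ct of 24.17, 23.23, 23.24 and 23.11 at 2 h and 23.75, 24.13 and 24.58 at 24 h, where the first 2 h well lay among the 24 h wells. *SlIDD5* had root Ct of 21.09, 20.6 and 20.2 at 2 h and 21.01, 20.96, 20.83 and 21.29 at 24 h, and shoot Ct of 20.52, 21.31 and 19.92 at 2 h and 20.35, 20.22, 20.68 and 21.41 at 24 h. *SlIDD10* had root Ct of 21.91, 22.59, 21.78 and 21.7 at 2 h and 22.28, 22.51 and 21.96 at 24 h, and shoot Ct of 20.6, 20.29 and 20.71 at 2 h and 20.38, 20.7 and 20.6 at 24 h. *SlIDD5* and *SlIDD10* overlapped between the times in both tissues before subtraction of ubiquitin. With no reference gene, the difference between tissues was -0.31 for *SlIDD5*, -0.23 for *SlIDD10*, -0.27 for *SlIDD1*, -0.37 for *SlIDD3* and -0.02 for *SlIDD7*, the opposite sign. *SlIDD12* (3.97), *SlIDD6* (2.57) and *SlIDD9* (2.34) kept an adjusted p of 0.0157 each, and *SlIDD11* (-3.44) and *SlIDD8* (-1.50) passed in favour of shoots, where *SlIDD11* relative to ubiquitin had -1.03 (SE 0.70, adjusted p = 0.241).

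**Figure D3:**
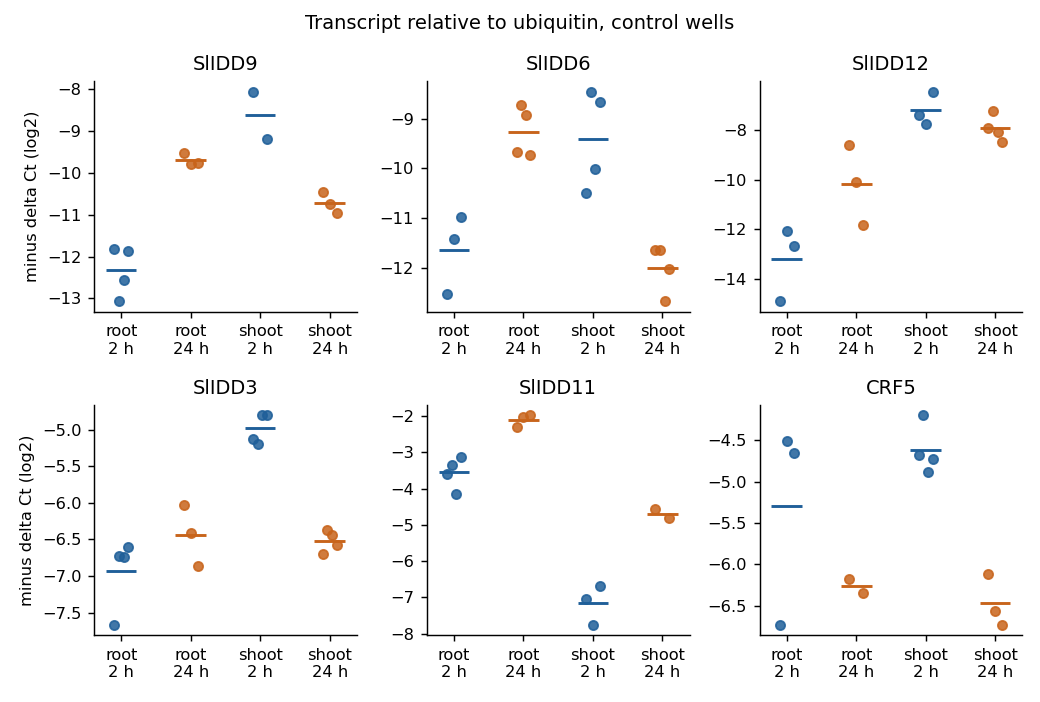
Transcript relative to ubiquitin (minus ΔCt, log2) of 6 targets in each control well, by tissue and time; blue dots are 2 h wells, orange dots 24 h wells, and bars their means. *SlIDD9* and *SlIDD6* are higher at 24 h in roots and lower at 24 h in shoots, *SlIDD11* is higher at 24 h in both tissues, and *CRF5* is lower at 24 h in shoots.

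**Figure D4:**
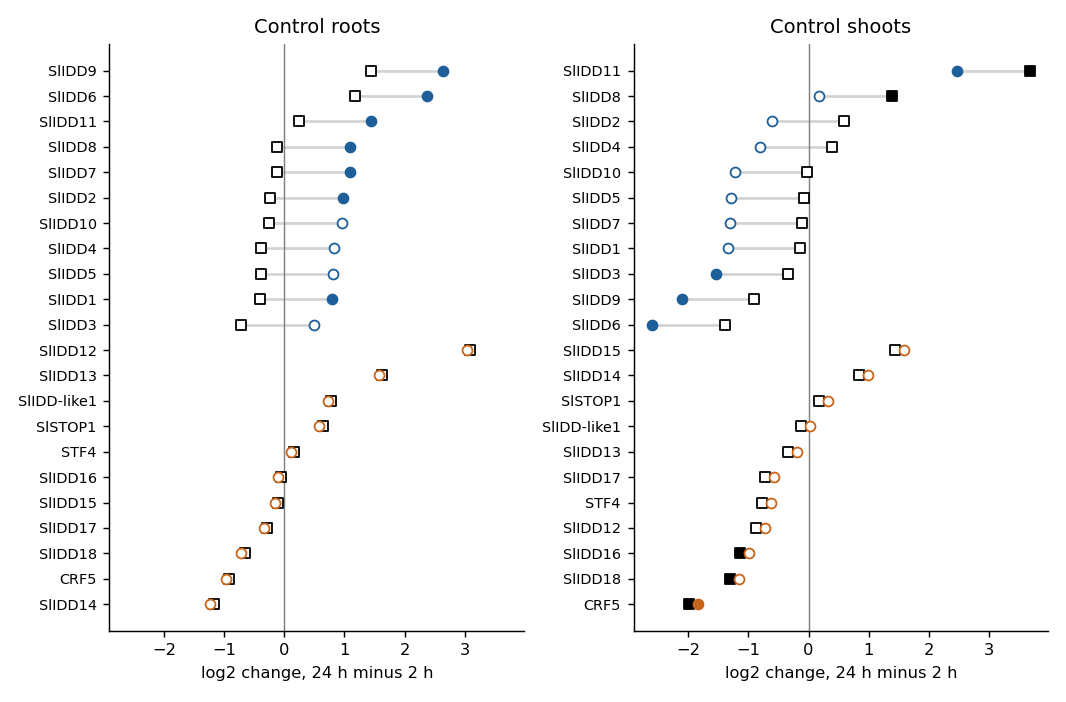
Log2 change of 24 h minus 2 h for 22 targets with ubiquitin of the same plate as reference (circles, blue for the first plate and orange for the second) and with no reference gene (black squares); filled symbols passed an adjusted p of 0.05. On the first plate the circles lie to the right of the squares in roots and to the left in shoots, on the second plate they nearly coincide, and in roots no square is filled.

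The stressed plants of the same series gave the time change outside the control plates, with 200 mM salt, solution of pH 4.2 or flooding, each with its own ubiquitin wells. Ubiquitin Ct also shifted there. On the first plate it changed by 0.43 cycles under salt, -0.81 under low pH and 0.19 under flood in roots, against 1.21 in controls. In shoots it changed by 0.57, 0.73 and -0.52, against -1.20. Second-plate shifts under stress ranged from -1.56 (low pH roots) to 0.83 (salt shoots). Each difference from controls relative to ubiquitin contains the shifts of the stressed and the control plate. In roots, the change differed from that of controls for 2 targets under salt (9.09%), 7 under low pH (31.8%) and 4 under flood (18.2%) in limma interaction fits. *SlIDD9* and *SlIDD6* were among them under each stress, but with the mean of all targets as reference neither passed under salt (adjusted p = 0.0671 and 0.0819), and *SlIDD6* did not pass there with no reference gene (adjusted p = 0.113). *SlIDD9* changed by 0.46 under salt, -1.32 under low pH and 0.39 under flood, against 2.65 in controls. *SlIDD6* changed by 0.05, -1.52 and -1.29, against 2.38. At 2 h, minus ΔCt of *SlIDD9* in control roots was -12.33 and in stressed roots between -10.14 and -8.77, and at 24 h it was -9.68 in controls and between -10.09 and -9.57 in stressed roots. Relative to ubiquitin, the control value at 2 h was the lowest of the 8 root groups. The 24 h control value lay within the range of the stressed groups on that scale only. In Ct, both control groups stood apart, with means of 28.84 at 2 h and 27.4 at 24 h, against 23.32 to 25.25 in stressed roots.

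In shoots, the change differed from controls for 9 of 22 targets under salt (40.9%), 10 of 20 under low pH (50%) and 9 of 22 under flood (40.9%). *SlIDD3* differed under all 3 stresses, with changes of 0.87, 1.94 and 0.53 under salt, low pH and flood against -1.54 in controls, although under salt it did not pass with no reference gene (adjusted p = 0.554), nor against the mean of all targets (adjusted p = 0.511). *SlIDD11* changed by 0.44 under salt, 1.28 under low pH and 0.58 under flood against 2.48 in controls, and the difference was past the threshold for salt (adjusted p = 0.0168) and flood (adjusted p = 0.0137), and for low pH only with no reference gene (adjusted p = 1.13e-04) or the mean of all targets (adjusted p = 6.39e-06). Mean Ct of *SlIDD11* in shoots was 22.82 (SD 0.55, n = 3) in controls at 2 h, 19.14 in controls at 24 h, and between 17.6 and 19.64 in the 6 stressed groups. In Ct, the 2 h control wells were apart from the other 7 shoot groups, those of controls at 24 h included. Relative to ubiquitin, minus ΔCt was -7.16 in controls at 2 h, -4.69 in controls at 24 h and between -3.89 and -2.40 in the stressed groups, so that the 24 h controls were also below the stressed groups. *CRF5* changed by 0.48 under salt and 0.07 under flood against -1.85 in controls, and both differences passed (adjusted p = 0.00182 and 0.00216). Its mean Ct in shoots was 20.52 in controls at 2 h, between 19.69 and 20.04 in the stressed groups at either time and 22.51 in controls at 24 h, so here the 24 h control wells stood apart. All 3 stresses were set against the same control wells, so these comparisons are not independent of each other.

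**Figure D5:**
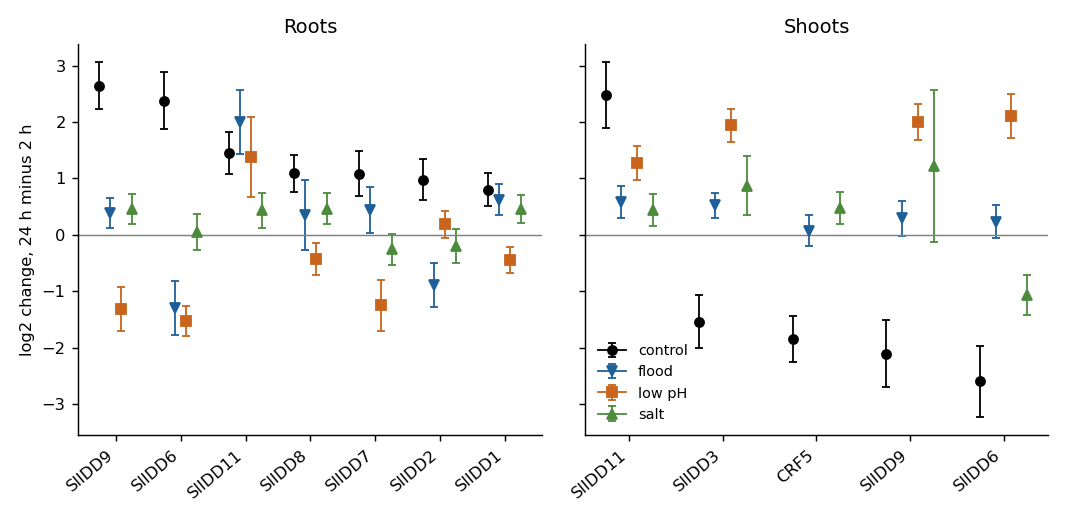
Log2 change of 24 h minus 2 h (points, with standard errors) of the targets called in control roots (7) and shoots (5), in controls (black circles), flood (blue), low pH (orange) and salt (green). The control change of *SlIDD9* and *SlIDD6* in roots lies above those of all 3 stresses, and in shoots the control changes of *SlIDD3*, *CRF5*, *SlIDD9* and *SlIDD6* lie below them; *CRF5* has no low pH value.

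Wells of the control plates scattered more at 2 h than at 24 h. The SD of Ct was larger at 2 h for 17 of 22 targets in roots, with medians of 0.53 at 2 h and 0.33 at 24 h, and for 19 of 22 in shoots, with medians of 0.52 and 0.33. The largest SD was 1.96 in roots and 1.43 in shoots at 2 h, and 1.62 and 0.79 at 24 h. These are descriptions over targets that share wells of the same plants and plates, and were given no test.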

How the data were processed

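The files hold wells of 16 plates of SYBR Green qRT-PCR from total RNA of tomato shoots and roots. Each well has a Ct value, in cycles and not normalized, as deposited by the authors. Sheets of relative quantities and fold changes, made by the authors with ubiquitin and the 2-ΔΔCt method, gave no value tested here. Published fold changes did serve to find the plate layout, and the fold change sheet names the locus of *SlIDD9* and *SlSTOP1*. Members and lists were chosen with earlier results of these data known.

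Tissue and treatment followed titles and source names, since the characteristics contradict both for several plates, the control root plates included. By the labels, each plate is one time point. Here rows A to D of every plate stand for 2 h, and rows E to H for 24 h, a layout that was found with the files in view, because it fitted the published fold changes. In each plate, 3 wells with irregular names were left out.

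Minus Ct was fitted with limma 3.58.1 in R 4.3.3, with ubiquitin of each plate as its own row. The ubiquitin change was subtracted, its variance was added (Satterthwaite degrees of freedom), and p-values were adjusted over 22 targets (Benjamini-Hochberg, threshold 0.05). Ubiquitin Ct was compared by exact permutation. The method was tested on simulated data with independent wells, in which ubiquitin and the targets of a plate took the same shift. That test could not show the effect of wells that share a plant, or of a shift in ubiquitin alone. Depth does not apply to Ct, and the number of wells (up to 4) limits precision. Full values were given, by rule, for up to 8 called targets per tissue, those that differed between tissues, and the one with the smallest change. Alternatives were other references, well rows left out, a block, other readings of the plates and other tests. Python 3.11.15, pandas 2.3.3 and matplotlib 3.10.9 were used.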

Additional observations from a re-analysis of the deposited data

Results flagged for a closer look

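Of 50 groups of 4 control wells tested, 1 held a well far from the others by Dixon's criterion, and chance flags about 1 in 20 such groups. It was *SlIDD3* in roots at 2 h, with a Ct of 24.17 in 1 well against 23.11 to 23.24 in the other 3. The time change of *SlIDD3* in roots was not called.

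The time change differed between control roots and shoots, in the interaction test, for 8 targets. The differences, root minus shoot, were 4.98 for *SlIDD6*, 4.75 for *SlIDD9*, 3.76 for *SlIDD12*, 2.39 for *SlIDD7*, 2.18 for *SlIDD10*, 2.14 for *SlIDD1*, 2.10 for *SlIDD5* and 2.04 for *SlIDD3*. Ubiquitin on the first plate, which serves all of these but *SlIDD12*, moved by 1.21 cycles in roots and -1.20 in shoots.

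For the targets called in controls, 21 of 35 differences between the change under a stress and in controls passed an adjusted p of 0.05 (limma interaction), against 41 of 130 (31.5%) over all targets. The former were picked by their change in the same control wells, which raises their count, so it supports nothing. In roots, stress minus control was -2.33 for *SlIDD6* and -2.19 for *SlIDD9* under salt. Under low pH it was -3.90 for *SlIDD6*, -3.96 for *SlIDD9*, -2.34 for *SlIDD7*, -1.52 for *SlIDD8* and -1.25 for *SlIDD1*. Under flood it was -3.67 for *SlIDD6*, -2.26 for *SlIDD9* and -1.87 for *SlIDD2*. The flood difference of *SlIDD2* was -0.85 with no reference gene (adjusted p = 0.124, limma interaction) and -1.14 with the mean of all targets (adjusted p = 0.0388). The low pH differences in roots also depended on the reference. *SlIDD1* had 0.77 with no reference gene (adjusted p = 0.0158, limma interaction), past the threshold in the opposite direction. *SlIDD8* turned to 0.49 (adjusted p = 0.247), and *SlIDD7* had -0.32 (adjusted p = 0.561). *SlIDD6* (-1.89, adjusted p = 0.0153) and *SlIDD9* (-1.95, adjusted p = 0.0158) kept their direction and passed.

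In shoots, stress minus control was 2.32 for *CRF5*, -2.03 for *SlIDD11* and 2.41 for *SlIDD3* under salt. Under low pH it was 3.48 for *SlIDD3*, 4.70 for *SlIDD6* and 4.11 for *SlIDD9*. Under flood it was 1.92 for *CRF5*, -1.90 for *SlIDD11*, 2.07 for *SlIDD3*, 2.83 for *SlIDD6* and 2.40 for *SlIDD9*. With the mean of all targets, the flood difference of *SlIDD9* was 1.24 and did not pass (adjusted p = 0.0540, limma interaction). With no reference gene that difference was 1.72 and passed (adjusted p = 0.013). The control wells are the same in all 3 stress comparisons of a tissue, and a control value that stands apart moves all of them.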

How the results depend on the processing

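Counts of called targets depended on the reference, on single well rows and on how the plates were read. In roots, 7 targets were called with ubiquitin of the same plate and 10 with ubiquitin of the same well row, all 7 among them. The count was 1 (*SlIDD9*) with ubiquitin over both plates, 2 with the mean of all targets and 0 with no reference gene. It was 0 with ubiquitin of the second plate, an alternative chosen after seeing the data (3 at an unadjusted p of 0.05). The root count was 11 with the error of ubiquitin left out, 3 with irregular wells in plate order, 4 with the spread of both tissues and 7 with the spread of all 16 groups (5 of the same). It was 4 with p adjusted over both tissues and 10 of 11 with genes and times as labelled (6 of the same names). By exact permutation it was 0, and the smallest p of that test, 0.0286, leaves little room after adjustment. In shoots the count was 5. It was also 5 with ubiquitin of the same well row (4 of the same) or over both plates (3 of the same), and 6 with the mean of all targets (3 of the same). It was 12 with the error of ubiquitin left out, 3 with irregular wells in plate order, 10 with the spread of both tissues and 5 adjusted over both tissues. It was 0 by exact permutation, 9 with the spread of all 16 groups, 3 with ubiquitin of the second plate, and 10 of 11 with genes and times as labelled (4 of the same). The difference between tissues was called for 8 targets, and for 10 with ubiquitin of the same well row. It was called for 7 with ubiquitin over both plates or the mean of all targets, and for 5 with no reference gene or with ubiquitin of the second plate.

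Leaving out 1 well row gave 2 to 9 calls in roots, 2 to 10 in shoots and 6 to 10 for the difference between tissues. In roots, every row but the second 2 h row moved the count by over 1.5 times (4, 3 and 4 without the first, the third and the fourth 2 h row, and 3, 2, 2 and 4 without each 24 h row in turn), and in shoots the fourth 2 h row (10) and the first 3 rows of 24 h (3, 2 and 3) did.

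The replicate block, the position of a well row within its time, could be fitted for 11 targets in roots, 10 in shoots and 10 for the difference, and called 3, 1 and 7. Wells of the same position deviated together in some positions only (correlations from -0.72 to 0.49), so the positions share only a number.

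Called values turned direction with 3 references, and the difference between tissues of *SlIDD8*, uncalled at 0.91, turned and passed. With the mean of all targets, root changes became -0.43 (*SlIDD1*), -0.25 (*SlIDD2*), -0.14 (*SlIDD7*) and -0.14 (*SlIDD8*), and differences between tissues -0.014 (*SlIDD1*), -0.12 (*SlIDD3*), -0.053 (*SlIDD5*) and -1.24 (*SlIDD8*). With no reference gene they became -0.41, -0.23, -0.12 and -0.12, and -0.27 (*SlIDD1*), -0.23 (*SlIDD10*), -0.37 (*SlIDD3*), -0.31 (*SlIDD5*), -0.021 (*SlIDD7*) and -1.50 (*SlIDD8*). With ubiquitin of the second plate they became -0.47, -0.29, -0.18 and -0.17, and -0.48, -0.43, -0.58, -0.52, -0.23 and -1.705.

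Ubiquitin over both plates changed by 0.67 cycles in roots (exact permutation p = 0.0950) and -0.38 in shoots (p = 0.349), from 0.52 to 0.78 and from -0.60 to -0.11 without 1 well row. The first plate alone gave 1.21 in roots, and the second -0.055 in roots and 0.15 in shoots. Targets that differed from controls numbered 0 under salt, 2 under low pH and 9 under flood in roots, and 3 under salt in shoots, with the mean of all targets. With no reference gene they numbered 7 under flood in roots, and 3 under salt and 5 under low pH in shoots. Adjusting the difference between tissues over both tissues is the same as the test made, and was not run apart. The causes were not tested.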
